A study of Mus musculus with 36 samples.

Results

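The genes described here are 38 genes of the lysosome: 11 proteases, 5 glycosidases, 3 genes of lipid handling, 4 membrane proteins, 14 genes of the proton pump and the transcription factor gene Tfeb. They were chosen by symbol, and all 38 were found among the 24127 genes of the deposited table and passed the filter on low values. The samples were dendritic cells of mice, derived from marrow cultures with GM-CSF and selected for CD11c, from Dhx58-/- mice (KO, lacking the RNA sensor LGP2) or from WT mice of strain C57BL/6. Cells received 20 ng of PAMP RNA by transfection, a poly-U/UC stretch of hepatitis C virus RNA that activates RIG-I, or were left as mock cells, and were collected at 1, 3 and 6 h. Each of the 12 groups (KO PAMP, KO mock, WT PAMP and WT mock at each time) held 3 libraries, 36 in all. The sources used here do not state the age or sex of the mice, and the mock cells are described as untreated, so that transfection itself and the RNA cannot be told apart.

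Lysosomes break down proteins, sugars and lipids with acid hydrolases, which work because a V-type ATPase pumps protons into the lumen. In this pump the V1 sector hydrolyses ATP and the V0 sector carries the protons through the membrane. In dendritic cells the cathepsins among these hydrolases cut antigens and the invariant chain of MHC class II, and lysosomes also take up and digest RNA and cell debris. Many lysosomal genes are targets of TFEB and its relatives, which bind DNA at the sequence CACGTG.

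Because that sequence marks this gene family, the RefSeq promoter windows of the GRCm38.p6 build, 250 bases before to 50 bases after a gene's start, were searched for it. A window was held for 30 of the 38 genes. CACGTG, which reads the same on both strands, stood in the windows of 12 of these 30 genes (40%), against 8.09% of all 27025 genes with a window. The longer form TCACGTGA, which contains CACGTG, stood in 6 of 30 (20%), against 1.12% of all genes. Windows of Ctsa, Gla and Lamp1 are shown with CACGTG in capitals, because all hold the motif while Ctsa fell and Gla rose after PAMP RNA. They lie at chr2:164833523-164833822, plus strand (Ctsa), chrX:134600956-134601255, minus strand (Gla) and chr8:13158911-13159210, plus strand (Lamp1), and are written 5′ to 3′ on the gene's strand.
Ctsa: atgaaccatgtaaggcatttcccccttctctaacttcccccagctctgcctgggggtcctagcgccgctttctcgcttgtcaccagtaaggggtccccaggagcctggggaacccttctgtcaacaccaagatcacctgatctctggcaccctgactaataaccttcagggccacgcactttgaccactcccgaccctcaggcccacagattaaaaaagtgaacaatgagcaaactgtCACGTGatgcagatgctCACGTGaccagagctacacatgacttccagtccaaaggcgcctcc
Gla: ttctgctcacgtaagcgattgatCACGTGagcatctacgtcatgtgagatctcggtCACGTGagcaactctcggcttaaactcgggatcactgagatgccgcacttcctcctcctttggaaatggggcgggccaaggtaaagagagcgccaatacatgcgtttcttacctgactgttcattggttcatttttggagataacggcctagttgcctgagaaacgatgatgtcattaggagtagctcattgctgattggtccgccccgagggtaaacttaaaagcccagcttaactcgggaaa
Lamp1: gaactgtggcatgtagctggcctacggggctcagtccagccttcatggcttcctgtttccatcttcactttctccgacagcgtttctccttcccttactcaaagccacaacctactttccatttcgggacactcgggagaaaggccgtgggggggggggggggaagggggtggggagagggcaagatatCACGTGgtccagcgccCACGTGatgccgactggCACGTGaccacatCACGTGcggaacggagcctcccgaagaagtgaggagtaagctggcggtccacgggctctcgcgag

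A core of the interferon-stimulated response element, GAAA, any 2 bases and GAAA again, on either strand, was added to the search after the responses had been seen. It stood in 3 of the 30 windows (10%), those of Ctss, Lamp1 and Atp6v1d, against 3.99% of all genes. The windows of Atp6v1d (chr12:78861589-78861888, minus strand) and Ctss (chr3:95526536-95526835, plus strand) are shown with this core in capitals, because Atp6v1d had the largest rise of the 38 genes in WT cells at 6 h. The windows of Ctsc and Lamp2, which also rose, held none of the 3 motifs. A match describes the letters of a window and not a site in use.
Atp6v1d: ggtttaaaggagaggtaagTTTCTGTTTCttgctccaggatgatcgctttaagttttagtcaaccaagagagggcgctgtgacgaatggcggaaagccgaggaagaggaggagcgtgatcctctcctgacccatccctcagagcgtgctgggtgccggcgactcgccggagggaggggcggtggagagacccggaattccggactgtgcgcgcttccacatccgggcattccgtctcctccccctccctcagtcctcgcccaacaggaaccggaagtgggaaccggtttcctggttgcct
Ctss: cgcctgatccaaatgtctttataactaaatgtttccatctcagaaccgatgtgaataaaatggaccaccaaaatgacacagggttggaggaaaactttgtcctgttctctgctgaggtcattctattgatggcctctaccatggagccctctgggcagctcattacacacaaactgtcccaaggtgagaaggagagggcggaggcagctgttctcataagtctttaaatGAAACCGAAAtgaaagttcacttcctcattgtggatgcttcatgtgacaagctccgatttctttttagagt

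Libraries held 4740909 to 14255730 reads, and the 38 genes together took 2.92% to 3.84% of the normalized counts of a library. Summed counts of conventional dendritic cell markers were 35730 to 77850 and those of monocyte and macrophage markers 19100 to 42420. Both kinds of marker were thus present in every library. The conventional dendritic cell list includes MHC class II genes and Cd74, so its sum also follows their level per cell and does not measure dendritic cell content alone. Marker sums of B cells, T cells, NK cells, erythroid cells and stromal cells reached at most 21.1, those of mast cells and basophils 14.3 to 226.5, of neutrophils 127.8 to 273.6, of plasmacytoid dendritic cells 252.2 to 1172 and of osteoclasts 4084 to 6116. Cd3g, Gzma, Mcpt4, Hbb-b1 and Hbb-bs were at 0 in all libraries. In bulk RNA, fewer cells of a type and less RNA per cell cannot be told apart. Dhx58 itself had 807.4, 984.9 and 1012 normalized counts in KO PAMP cells at 6 h, against 808.0, 724.6 and 633.6 in KO mock cells, and 3066, 2941 and 3009.8 in WT PAMP cells, against 361.6, 287.1 and 272.8 in WT mock cells. Reads of the gene remained in the libraries labelled KO and in mock cells exceeded those of WT, by 1.19 ± 0.079 (log2 ± SE, limma adjusted p = 8.35e-17). The sources used here do not state which stretch was deleted, so a sum over all of its exons is no check of the genotype.

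Levels spanned a wide range. Per kilobase of exon, Psap, the precursor of the saposins that activate lipid-cleaving enzymes, led with a mean of 31453 normalized counts over all libraries, ahead of the aspartic protease gene Ctsd with 15761 and of Ctss with 9097. The lowest were Ctsk with 47.2, the calcium channel gene Mcoln1 with 21.5 and Ctse with 6.61. Among related genes, Ctss (9097) stood above Ctsl (515.2) and Ctsk (47.2), Ctsd (15761) above Ctse (6.61), and Lamp1 (5332) above Lamp2 (995.2), all per kilobase. The exon length used covers all annotated exons of a gene, so these gaps depend on the annotation. It was 1358 bases for Ctss, 6489 for Ctsl, 2675 for Lamp1 and 9552 for Lamp2. Not divided by length, mean counts were 12354 for Ctss, 3343 for Ctsl, 14264 for Lamp1 and 9506.5 for Lamp2. Of the alternative d subunits of the pump, Atp6v0d2 averaged 975.8 and Atp6v0d1 751.0 per kilobase over all libraries, on 2716 and 1793 bases of exon. Per kilobase, that order turned with time in mock culture. At 1 h Atp6v0d2 had 1440 ± 69.2 in KO mock and 1127 ± 31.1 in WT mock cells (mean ± SD per kilobase, n = 3), and Atp6v0d1 had 793.1 ± 23.9 in KO mock and 772.9 ± 34.0 in WT mock cells. At 6 h Atp6v0d2 had 599.5 ± 24.7 in KO mock and 569.2 ± 39.1 in WT mock cells, below Atp6v0d1 with 731.9 ± 23.3 in KO mock and 711.0 ± 12.8 in WT mock cells. Not divided by length, Atp6v0d2 averaged 2650.4 counts over all libraries (lowest 1426.1) and Atp6v0d1 1346.5 (highest 1505.7). In mean counts Atp6v0d2 stayed above Atp6v0d1 in mock cells at 6 h, so the turn rests on the exon lengths used.

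**Figure D1:**
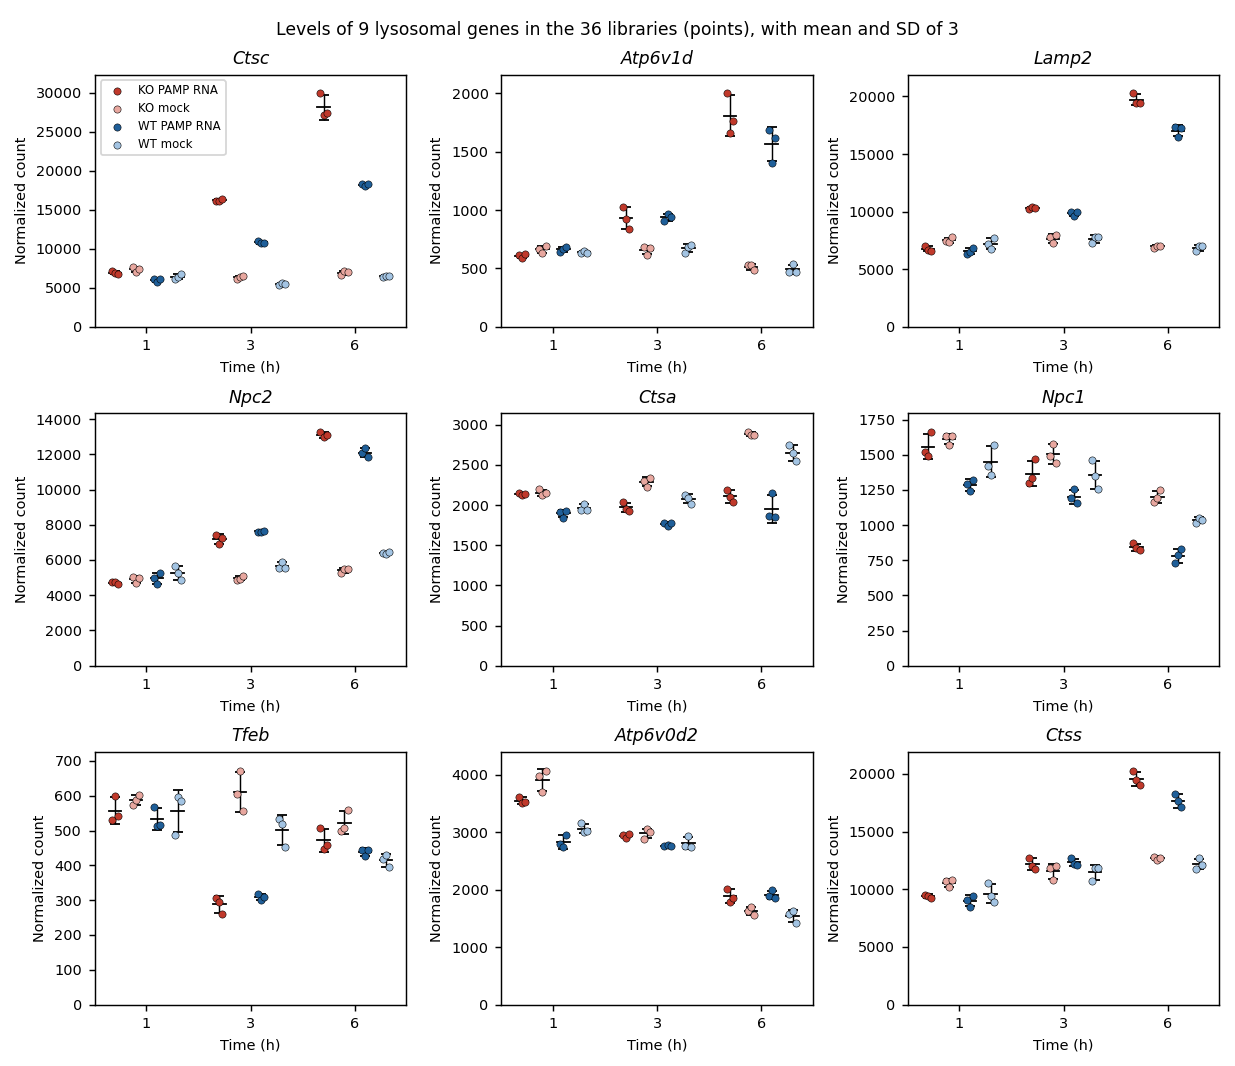
Normalized counts of 9 genes in every library, by time after transfection (h) and by group; points are libraries and black bars the mean and SD of 3, on linear axes that start at 0. By their means, Ctsc, Atp6v1d, Lamp2 and Npc2 lie higher in PAMP than in mock cells at 3 and 6 h, Ctsa and Npc1 lower, and Tfeb is lower in PAMP cells at 3 h.

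The first comparison was PAMP RNA against mock at each time. At 1 h no member passed the test in either genotype, where 1.19% of all genes rose and 0.169% fell in KO cells and 0.801% rose and 0.143% fell in WT cells (limma, adjusted p under 0.05). At an unadjusted p under 0.05, 12 members were lower and 0 higher in KO cells and 11 were lower and 0 higher in WT cells, where 7.99% of all genes in KO and 8.9% in WT cells passed in either direction. The same counts came from edgeR, while DESeq2 gave 7 lower in KO and 13 lower in WT cells, with 0 higher and 0 called in both. Ctss differed by -0.17 ± 0.052 in KO cells (log2 ± SE, limma adjusted p = 0.148) and by -0.091 ± 0.052 in WT cells (adjusted p = 0.661).

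At 3 h, 10 members rose and 7 fell in KO cells, where 23.8% of all genes rose and 26.9% fell. In WT cells 8 members rose and 6 fell, where 19.6% of all genes rose and 22% fell. The median change of the 38 genes was 0.066 in KO and 0.002 in WT cells, against -0.034 and -0.026 for all genes tested. It was -0.26 in KO and -0.22 in WT cells with quantile normalization, and -0.18 in KO and -0.17 in WT cells with equal total reads. Of the members called, 7 rose in both genotypes (70% of those in KO and 87.5% of those in WT) and 5 fell in both (71.4% of those in KO and 83.3% of those in WT). The matching overlap over all genes is not given here, so these shares describe the members only. With quantile normalization or scaling to equal total reads, which lower the share of rises among all called genes to 34.8% or 20.8% in KO cells (47% with the deposited scaling) and to 33.9% or 23% in WT cells (47.1%), most members fell. With quantile normalization 4 rose and 24 fell in KO and 4 rose and 22 fell in WT cells. Of all 11853 genes, 2320 rose and 4341 fell in KO and 1944 rose and 3798 fell in WT cells with that scaling. With equal totals 4 members rose and 26 fell in KO and 5 rose and 23 fell in WT cells. Of all genes, 1765 rose and 6736 fell in KO and 1607 rose and 5366 fell in WT cells with equal totals. Ctsc, Npc2 and Atp6v1d rose in both genotypes under all 3 scalings, and Ctsa, Ctsd, Ctsh, Npc1 and Tfeb fell. At 3 h the plasmacytoid marker sum averaged 1024 in KO PAMP and 489.2 in KO mock cells, and 1008 in WT PAMP and 560.4 in WT mock cells. The macrophage sum averaged 26090 in KO PAMP and 23120 in KO mock cells, and 28150 in WT PAMP and 26130 in WT mock cells, and the part of either in the changes at 3 h was not tested.

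Ctsc, the dipeptidyl peptidase that trims the amino ends of proteins and activates granule proteases, moved most at 3 h. It had 16136, 16152 and 16361 normalized counts in KO PAMP cells, against 6130, 6338 and 6548 in KO mock cells. WT cells had 10971, 10734 and 10709 with PAMP RNA, against 5384, 5641 and 5492 in mock cells. Groups did not overlap, and all KO PAMP libraries lay above all WT PAMP libraries. The change was 1.36 ± 0.045 in KO (limma adjusted p = 7.41e-30) and 0.97 ± 0.045 in WT cells (adjusted p = 6.3e-24).

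Tfeb, the regulator of lysosomal genes, moved the other way at 3 h. It had 307.4, 295 and 259.9 normalized counts in KO PAMP cells, against 605.6, 671.1 and 554.9 in KO mock cells. WT PAMP cells had 317.1, 301.2 and 309.6, against 533.7, 517.8 and 453.7 in WT mock cells. No PAMP library reached the lowest mock library in either genotype. The change was -1.08 ± 0.077 in KO (limma adjusted p = 5.47e-17) and -0.69 ± 0.077 in WT cells (adjusted p = 1.2e-10). At 6 h the PAMP and mock libraries overlapped, with 508.1, 446.7 and 459.6 against 499.2, 506.1 and 559.5 in KO cells, and 444.6, 425.7 and 445.3 against 417.8, 429.8 and 394.0 in WT cells. The difference at 6 h was -0.15 ± 0.077 in KO (adjusted p = 0.0844; -0.63 with equal totals, adjusted p = 5.24e-10) and 0.084 ± 0.077 in WT cells (adjusted p = 0.338; -0.29 with equal totals, adjusted p = 0.000804). The difference at 3 h was larger than that at 6 h under each of the 3 scalings, a contrast between times that was not itself tested.

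Among the other falls at 3 h, Ctsh, an aminopeptidase, changed by -0.27 ± 0.054 in KO (limma adjusted p = 3.21e-05) and by -0.14 ± 0.054 in WT cells (adjusted p = 0.0358). The WT calls of Ctsh and Ctsd held in only 2 and 1 of 6 fits that each left out 1 library, with adjusted p up to 0.13 and 0.0831. In KO cells Ctsd and Npc1 held in 3 and 2 of 6 fits, with adjusted p up to 0.118 and 0.2, and Npc1 in WT cells in 4 of 6, with adjusted p up to 0.147.

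At 6 h most members had changed. In KO cells 23 rose and 8 fell, where 35.1% of all genes rose and 36.5% fell, and in WT cells 21 rose and 10 fell, where 32.1% of all genes rose and 33.3% fell. Their median change was 0.26 in KO and 0.18 in WT cells, against -0.029 and -0.023 for all genes. Of these calls, 20 rises were shared (87% of those in KO and 95.2% of those in WT), as were 8 falls (100% of those in KO and 80% of those in WT). No member changed in opposite directions. The matching overlap over all genes is not given here, so these shares cannot be read as particular to the members. The summed monocyte and macrophage markers were also higher at 6 h, with means of 40960 in KO PAMP and 31560 in KO mock cells, and 40480 in WT PAMP and 33760 in WT mock cells. The conventional dendritic cell sum was 58130 in KO PAMP and 46080 in KO mock cells, and 77130 in WT PAMP and 65880 in WT mock cells. The plasmacytoid list, 3 of whose 5 genes passed the filter, summed to 1087 in KO PAMP and 542.1 in KO mock cells, and to 1117 in WT PAMP and 608.4 in WT mock cells. The part of these shifts in the lysosomal changes was not tested.

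How many members rose at 6 h depended on the scaling. Their summed share of a library's counts, which no size factor changes, was 3.225% to 3.315% in KO PAMP and 3.701% to 3.785% in KO mock libraries. It was 2.921% to 3.152% in WT PAMP and 3.539% to 3.605% in WT mock libraries. This sum follows the most abundant members most. Equal totals moved the median of all genes by -0.48 in KO and -0.37 in WT cells, and the share of rises among all called genes was 20.2% in KO and 20.8% in WT cells, against 49% in both with the deposited size factors and 40.4% and 40% with quantile normalization. Members then split into 10 rises and 24 falls in KO and 9 rises and 22 falls in WT cells with equal totals. Of all 11853 genes, 1999 rose and 7883 fell in KO and 1942 rose and 7402 fell in WT cells. With quantile normalization members split into 8 rises and 21 falls in both genotypes. There 3363 of all genes rose and 4968 fell in KO, and 3103 rose and 4664 fell in WT cells. With quantile normalization 21 of the 31 called members in KO and 24 of 31 in WT cells kept their direction relative to the median gene. With equal totals all 31 did in each genotype. That result is fixed in advance, because this scaling multiplies all genes of a library by the same factor, the pseudocount aside. The 7 genes that rose under all 3 scalings were the same in both genotypes: Ctsc, Lamp2, Gla, Npc2, Atp6v1d, Atp6v1e1 and Atp6v1h. Those that fell under all 3 were Ctsa, Ctsl, Gusb, Naglu, Npc1, Psap and Atp6ap1 in both, and also Ctsd, Ctse and Glb1 in WT cells.

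**Figure D2:**
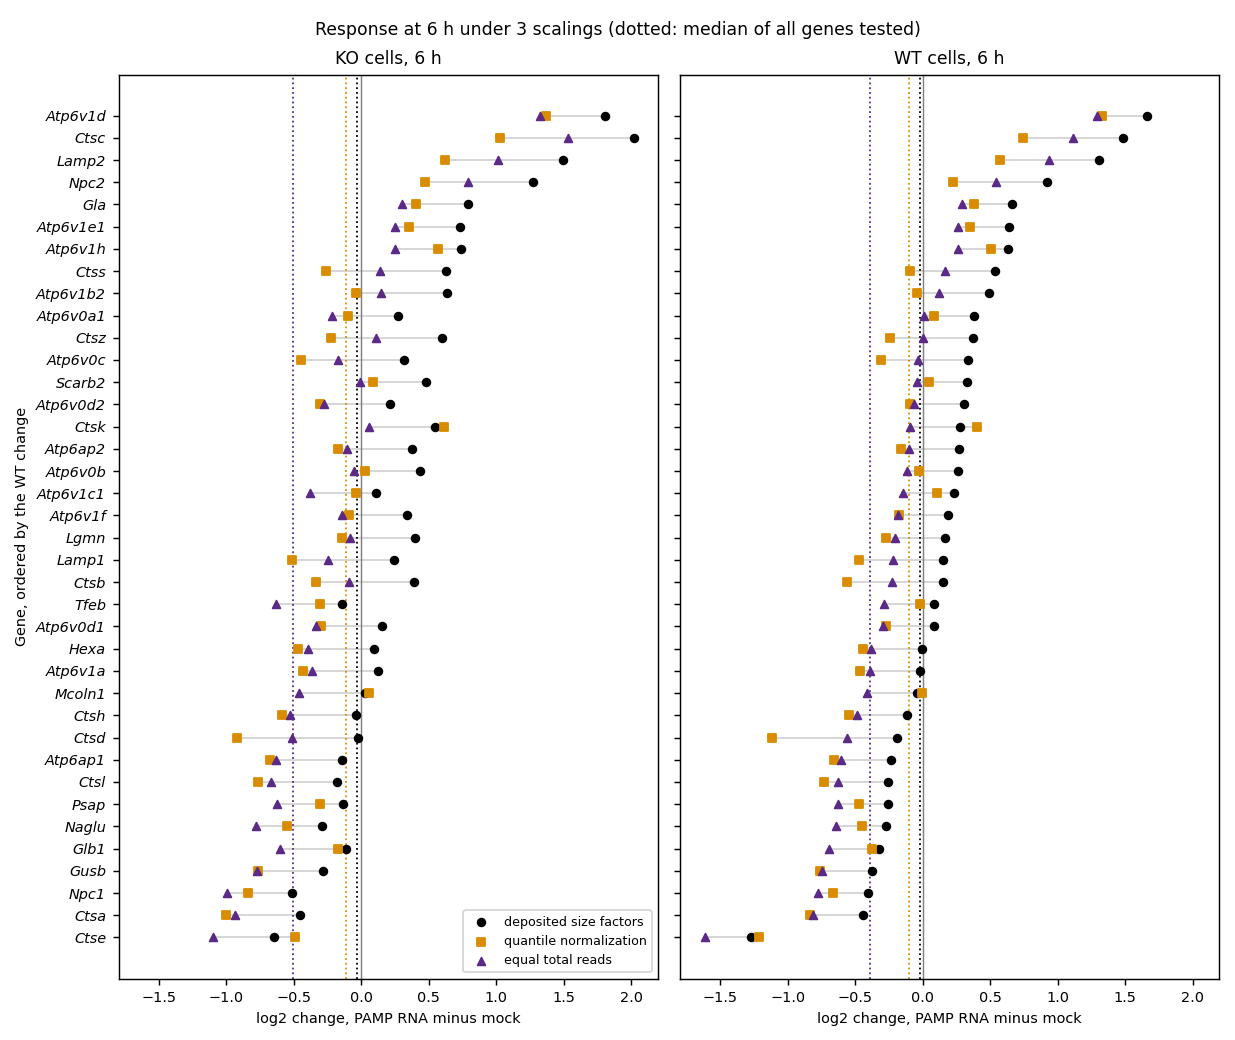
Change of each of the 38 genes at 6 h (log2, PAMP RNA minus mock) with the deposited size factors, with quantile normalization and with equal total reads, in KO cells (left) and WT cells (right); each row is a gene, ordered by the WT change, each symbol a scaling and each dotted line the median of all genes tested under it. Ctsc and Atp6v1d stay right of 0 with all 3, Ctsa and Npc1 stay left of 0, and Lamp1 crosses 0.

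Of 8 cysteine proteases, 6 rose and 1 fell in KO cells and 5 rose and 1 fell in WT cells at 6 h with the deposited scaling. With quantile normalization 2 rose and 6 fell in KO and 2 rose and 5 fell in WT cells, and with equal totals 3 rose and 3 fell in KO and 2 rose and 4 fell in WT cells. Of these genes only Ctsc rose under all 3 scalings in both genotypes. Ctsc had 29909, 27097 and 27314 normalized counts in KO PAMP cells, against 6663, 7148 and 7004 in KO mock cells. WT PAMP cells had 18255, 17976 and 18313, against 6378, 6539 and 6526 in WT mock cells. The groups lay far apart, at a 4.05-fold higher mean in KO (2.02 ± 0.045, limma adjusted p = 4.97e-37) and a 2.81-fold higher mean in WT cells (1.49 ± 0.045, adjusted p = 1.7e-31).

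Ctss, the cathepsin that removes the invariant chain from MHC class II, had 20260, 19438 and 19072 in KO PAMP cells, against 12830, 12502 and 12705 in KO mock cells. WT PAMP cells had 18289, 17618 and 17111, against 11787, 12700 and 12068 in WT mock cells. PAMP and mock libraries did not overlap, and the change was 0.63 ± 0.052 in KO (limma adjusted p = 8.1e-15) and 0.54 ± 0.052 in WT cells (adjusted p = 1.57e-12). With quantile normalization it turned to -0.26 in KO (adjusted p = 2.87e-06) and to -0.092 in WT cells (adjusted p = 0.0755), and with equal totals it stayed a rise of 0.14 in KO and 0.16 in WT cells.

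Ctsl, a related endopeptidase, fell under all 3 scalings. It had 2659, 2542 and 2528 in KO PAMP cells, against 2856, 2964 and 2948 in KO mock cells, and 2697, 3246 and 2936 in WT PAMP cells, against 3688, 3601 and 3276 in WT mock cells. No library overlapped between PAMP and mock, and the change was -0.18 ± 0.059 in KO (limma adjusted p = 0.00597) and -0.25 ± 0.059 in WT cells (adjusted p = 0.000237).

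Ctsa, a serine carboxypeptidase that protects its partner glycosidases from breakdown, had 2192, 2107 and 2034 in KO PAMP cells, against 2909.7, 2878 and 2869.9 in KO mock cells. Its counts in WT PAMP cells were 1861, 2156 and 1849.9, against 2745, 2644 and 2555 in WT mock cells. All PAMP libraries were below all mock libraries, by -0.45 ± 0.046 in KO (limma adjusted p = 5.32e-12) and -0.44 ± 0.046 in WT cells (adjusted p = 1.47e-11). Its exons overlap Neurl2 and Pltp on the other strand, and without strand marking their reads cannot be told apart.

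Of 5 glycosidases, 1 rose and 2 fell in KO cells and 1 rose and 3 fell in WT cells. The riser was Gla, alpha-galactosidase A, with 1296, 1249.8 and 1232 in KO PAMP cells, against 723.4, 734.9 and 721.7 in KO mock cells, and 1127, 1112 and 1131 in WT PAMP cells, against 692.9, 748.6 and 686.6 in WT mock cells. The groups were well apart, and the change was 0.79 ± 0.058 in KO (limma adjusted p = 8.34e-17) and 0.66 ± 0.058 in WT cells (adjusted p = 4.4e-14). Gusb, beta-glucuronidase, fell by 0.28 in KO (adjusted p = 5.62e-07) and by 0.38 in WT cells (adjusted p = 1.28e-09), and Naglu, which degrades heparan sulfate, fell by 0.29 (adjusted p = 5.24e-05) and by 0.27 (adjusted p = 0.000203). Hexa passed in none of the 6 responses with the deposited scaling. With equal totals 1 glycosidase rose and 4 fell in each genotype at 6 h, so that Hexa was among the falls. With quantile normalization 1 rose and 3 fell in KO and 1 rose and 4 fell in WT cells.

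The genes of cholesterol export went in opposite directions. Npc2, the soluble protein that binds cholesterol in the lumen, had 13262, 12969 and 13070 in KO PAMP cells, against 5244, 5476 and 5516 in KO mock cells. In WT PAMP cells it had 12058, 12347 and 11831, against 6371, 6348 and 6448 in WT mock cells. Every PAMP library was above every mock library, a change of 1.28 ± 0.046 in KO (limma adjusted p = 1.76e-28) and 0.92 ± 0.046 in WT cells (adjusted p = 1.2e-22). Npc1, the membrane protein that takes cholesterol over from NPC2, had 869.9, 834.6 and 824.2 in KO PAMP cells, against 1164, 1195 and 1247 in KO mock cells. Counts in WT PAMP cells were 732.3, 783.8 and 828.5, against 1012, 1052 and 1038 in WT mock cells. These libraries did not overlap either, and the change was -0.51 ± 0.058 in KO (adjusted p = 9.58e-11) and -0.40 ± 0.058 in WT cells (adjusted p = 4.43e-08). Psap, the third gene of this group, fell by 0.26 in WT cells (adjusted p = 6.17e-05).

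With the deposited scaling, 3 of the 4 membrane proteins rose in each genotype and Mcoln1 passed in no response. With equal totals 1 rose and 2 fell in each genotype, the falls being those of Lamp1 and Mcoln1. With quantile normalization 1 rose and 1 fell in each. Only Lamp2 rose under all 3 scalings, since Lamp1 turned and Scarb2, the receptor that brings beta-glucocerebrosidase to lysosomes, did not pass with quantile normalization (0.088 in KO and 0.045 in WT cells) or equal totals (-0.010 in KO and -0.043 in WT cells). Lamp2, a glycoprotein of the lysosomal membrane with a role in autophagy, had 20277, 19460 and 19393 in KO PAMP cells, against 6868, 7040 and 7029 in KO mock cells. WT PAMP cells had 17324, 16452 and 17221, against 6562, 7018 and 7000.4 in WT mock cells. The lowest PAMP library was far above the highest mock library in both genotypes, with a 2.82-fold higher mean in KO (limma adjusted p = 4.77e-31) and a 2.48-fold higher mean in WT cells (adjusted p = 1.76e-28). Its partner Lamp1 had 17923, 17368 and 17246 in KO PAMP cells, against 14555, 14731 and 15104 in KO mock cells, and 15689, 14959 and 15857 in WT PAMP cells, against 13734, 14310 and 13769 in WT mock cells. That was 0.24 ± 0.040 in KO (adjusted p = 6.17e-07) and 0.15 ± 0.040 in WT cells (adjusted p = 0.00083) with the deposited scaling, but -0.24 and -0.22 with equal totals and -0.51 and -0.47 with quantile normalization, each passing the test the other way. In these PAMP cells Lamp2 had more counts than Lamp1. Divided by the length of all annotated exons, which is longer for Lamp2, Lamp1 was above Lamp2. The values per kilobase were 6547 ± 135 and 2063 ± 51.6 in KO and 5795 ± 178.5 and 1780 ± 49.9 in WT cells.

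Most proton pump genes rose with the deposited scaling, but not with the others. Of the 14 genes, 12 rose and 1 fell in KO cells (median 0.33) and 11 rose and 1 fell in WT cells (median 0.29). With equal totals, 4 rose and 9 fell in KO and 4 rose and 6 fell in WT cells, and with quantile normalization 3 rose and 6 fell in each. Of 7 V1 genes 6 rose in each genotype, of 5 V0 genes 5 rose in KO and 4 in WT cells, and of the accessory genes Atp6ap2 rose and Atp6ap1 fell in both. Under all 3 scalings the rises were those of Atp6v1d, Atp6v1e1 and Atp6v1h, all of V1, and the fall of Atp6ap1 held.

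Atp6v1d, the central rotor of V1, had 2000.5, 1661 and 1761 in KO PAMP cells, against 530.5, 525.9 and 485.5 in KO mock cells. The WT PAMP libraries had 1685, 1403 and 1613, against 470.6, 537.0 and 470.3 in WT mock cells. PAMP libraries stood well above mock libraries, by 1.81 ± 0.068 in KO (limma adjusted p = 1.17e-27) and 1.67 ± 0.068 in WT cells (adjusted p = 5.12e-26). Atp6v1h, the regulatory subunit, changed by 0.74 ± 0.066 in KO (adjusted p = 8.02e-14) and Atp6v1e1, of the outer stalk, by 0.64 ± 0.060 in WT cells (adjusted p = 4.98e-13). Exons of both overlap another gene.

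Atp6v0d2, the d subunit that osteoclasts use, had 2018, 1788 and 1846 in KO PAMP cells, against 1631, 1694 and 1559.6 in KO mock cells, and 1890.3, 1991 and 1847 in WT PAMP cells, against 1583, 1629 and 1426 in WT mock cells. Groups did not overlap and the change was 0.21 ± 0.049 in KO (limma adjusted p = 0.000215) and 0.31 ± 0.049 in WT cells (adjusted p = 5.23e-07), which turned to -0.28 and -0.067 with equal totals and to -0.31 and -0.097 with quantile normalization. These PAMP levels at 6 h were below those at 1 h, which were 3617, 3507 and 3519.9 in KO PAMP and 2795, 2733 and 2956 in WT PAMP cells. The osteoclast marker sum was 5544 in KO PAMP and 5132 in KO mock cells, and 5955 in WT PAMP and 5986 in WT mock cells at 6 h. Whether it takes part in the change of Atp6v0d2 was not tested.

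**Figure D3:**
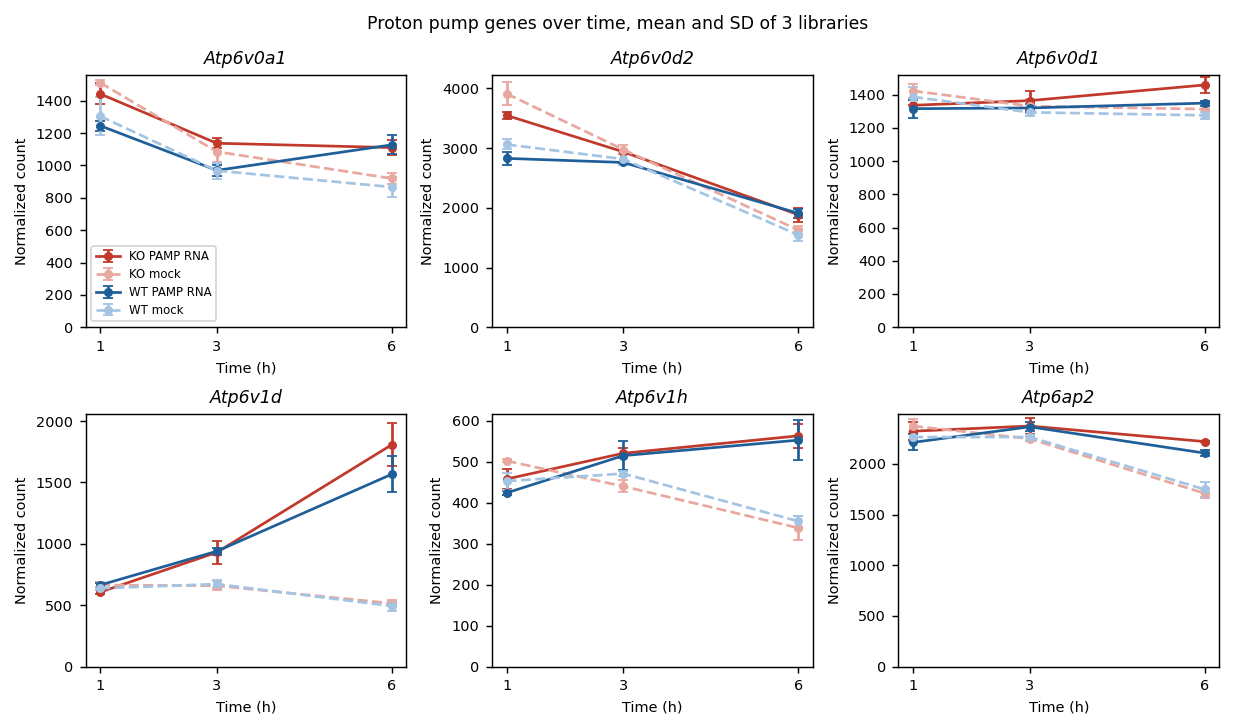
Normalized counts of 6 proton pump genes against time (h) in the 4 kinds of cells; points are group means with SD bars (n = 3) and lines join them, solid for PAMP RNA and dashed for mock. Atp6v1d lies above mock in PAMP cells at 3 and 6 h, while Atp6v0d2 is lower at 6 h than at 1 h in all 4 kinds of cells.

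Other genes of the pathway gave a mixed picture at 6 h. The counts of each list below stand beside the shares of all genes with the deposited scaling. These were 35.1% rising and 36.5% falling in KO, and 32.1% rising and 33.3% falling in WT cells. Of 38 other hydrolases and activators, 11 rose and 18 fell in KO cells (median -0.15) and 10 rose and 19 fell in WT cells (median -0.20). Sgsh, a sulfatase of heparan sulfate breakdown, changed by -1.83 in KO (limma adjusted p = 7.64e-16) and -1.67 in WT cells (adjusted p = 2.18e-14). Of 30 other membrane proteins and transporters, 14 rose and 8 fell in KO and 16 rose and 9 fell in WT cells (medians 0.13 and 0.15). The endolysosomal channel gene Tpcn1 changed by -2.51 in KO (adjusted p = 3.35e-28) and -2.02 in WT cells (adjusted p = 2.85e-24), and the peptide transporter gene Slc15a3 by 1.63 (adjusted p = 1.6e-32) and 1.19 (adjusted p = 8.21e-27).

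Of 7 other pump genes, 5 rose and 0 fell in each genotype (medians 0.73 in KO and 0.51 in WT), against 5 rises and 2 falls in each with equal totals. They include Tcirg1, an a subunit of V0, at 1.16 in KO (limma adjusted p = 1.38e-17) and 0.93 in WT cells (adjusted p = 3.34e-14), and Ncoa7, which binds the pump, at 2.58 (adjusted p = 4.15e-33) and 1.98 (adjusted p = 3.16e-28). Of 9 assembly and acidification genes, 2 rose and 3 fell in each genotype (medians 0.089 in KO and 0.042 in WT). A list of protease inhibitors held cathepsin inhibitors and also serpin genes such as Serpinb9. Of its 8 genes tested, 7 rose and 0 fell in each genotype (medians 1.36 in KO and 1.05 in WT). With either other scaling 5 rose and 1 fell in each. Whether they act on the cathepsins described here was not tested. Ctla2b, related to the propeptide of cysteine proteases, changed by 3.70 in KO (adjusted p = 2.22e-19) and 2.41 in WT cells (adjusted p = 6.8e-13).

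Of 26 genes of mannose 6-phosphate tagging and sorting, 13 rose and 7 fell in KO and 9 rose and 5 fell in WT cells (medians 0.12 and 0.10). Gnptab, which makes the tag, changed by 1.47 in KO (limma adjusted p = 1.24e-26) and 1.10 in WT cells (adjusted p = 1.78e-21), and the sorting receptor gene Sort1 by -1.41 (adjusted p = 1.08e-25) and -1.22 (adjusted p = 5.62e-23). Of 24 genes of the TFEB relatives and of mTORC1 at the lysosome, 13 rose and 4 fell in KO and 12 rose and 4 fell in WT cells (medians 0.24 and 0.17). Of 36 autophagy genes, 12 rose and 20 fell in KO and 11 rose and 20 fell in WT cells (medians -0.25 and -0.30). The rises of this list were near the shares of all genes, 35.1% in KO and 32.1% in WT cells, as were the WT rises of the tagging and sorting genes. Ulk1, the kinase that starts autophagy, changed by -1.43 in KO (adjusted p = 1.01e-18) and -1.14 in WT cells (adjusted p = 3.75e-15).

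Where rises outnumbered falls in these lists, the split turned round with equal totals except for the other pump genes and the protease inhibitors. The membrane proteins and transporters then had 8 rises and 18 falls in KO and 9 and 16 in WT cells, the tagging and sorting genes 4 and 17 in KO and 5 and 16 in WT cells, and the TFEB and mTORC1 list 4 and 16 in KO and 5 and 15 in WT cells. Falls also outnumbered rises in these 3 lists with quantile normalization. Sgsh, Tpcn1, Slc15a3, Tcirg1, Ncoa7, Ctla2b, Gnptab, Sort1 and Ulk1 kept their direction and their call in both genotypes under all 3 scalings.

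**Figure D4:**
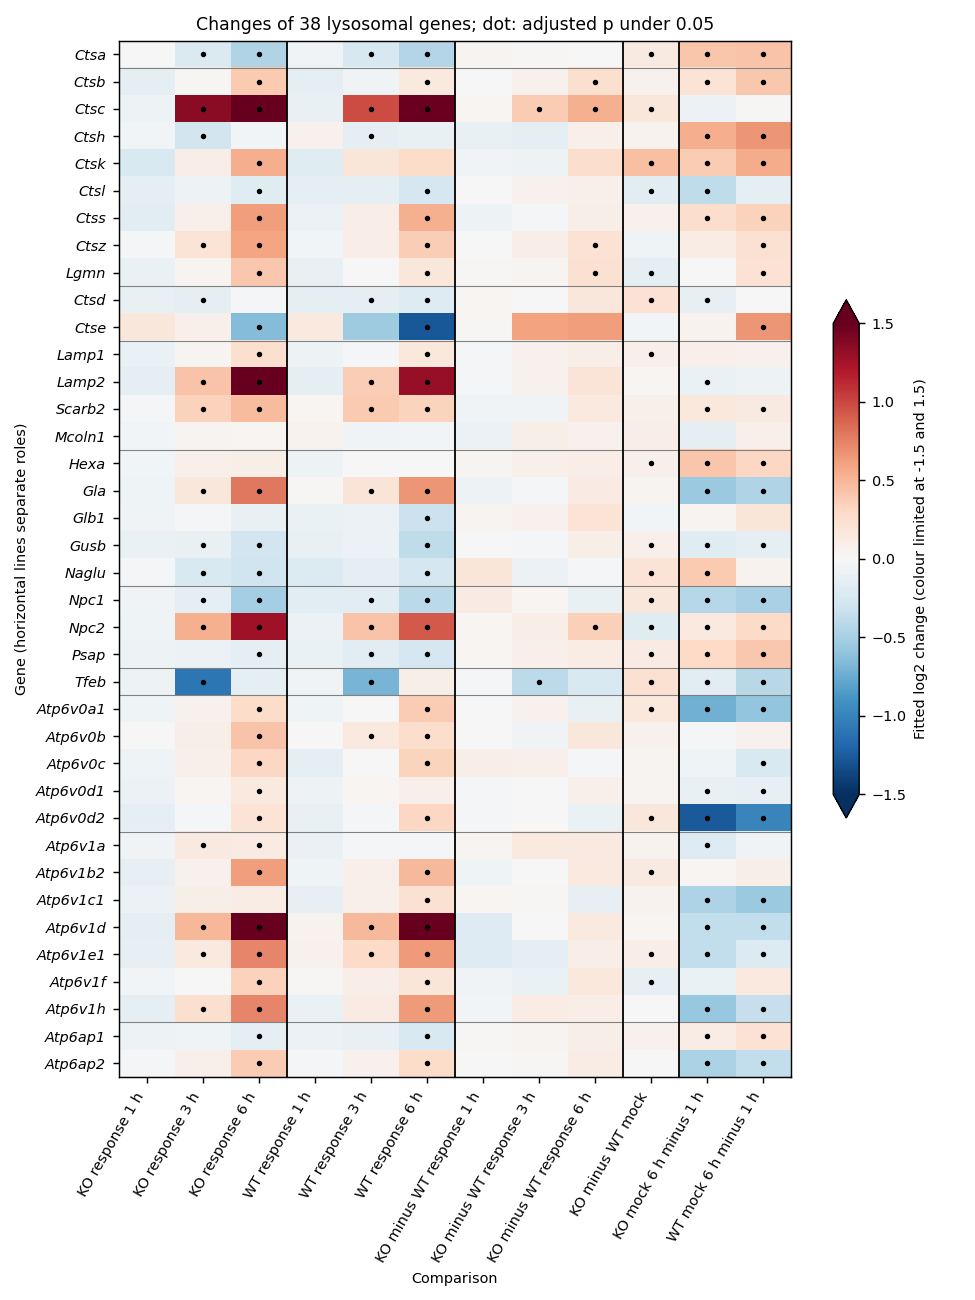
Change (log2) of each of the 38 genes (rows, ordered by role) in the 12 comparisons (columns), as colour limited at -1.5 and 1.5, with a dot where the adjusted p was under 0.05. More members are called at 6 h than at 1 or 3 h, while Tfeb is lowest against mock at 3 h, and the strongest rises are those of Ctsc, Atp6v1d, Lamp2 and Npc2.

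The next comparison asked whether KO and WT cells responded differently, subtracting WT responses from KO responses. At 1 h 0 members passed, where 0.118% of all genes were higher and 0% lower. At an unadjusted p under 0.05, 1 was higher and 1 lower, by limma, edgeR and DESeq2 alike, where 4.64%, 5.29% and 3.8% of all genes passed, a share near that of the members. At 3 h 1 member was higher in KO, where 2.58% of all genes were, and 1 lower, where 0.557% were. They were Ctsc at 0.38 ± 0.063 (limma adjusted p = 8.17e-05) and Tfeb at -0.39 ± 0.108 (adjusted p = 0.0321), on the values given above. The Tfeb difference passed in 6 of 12 fits that each left out 1 library, with adjusted p up to 0.138 (without KO PAMP replicate 3). Its KO mock libraries at 3 h were also higher than those of WT, while its PAMP libraries overlapped (259.9 to 307.4 in KO and 301.2 to 317.1 in WT).

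At 6 h 5 members responded more in KO cells and 0 less, where 6.67% of all genes responded more and 3.81% less. The share of higher among all called genes was 63.6%, against 42.5% with quantile normalization and 23.3% with equal totals. The 5 were the cysteine proteases Ctsc, Ctsb, Ctsz and Lgmn, and Npc2. The median difference of the 38 genes was 0.10, against 0.020 for all genes, but 0.007 with quantile normalization and -0.009 with equal totals. With quantile normalization 3 members responded more and 1 less, where 381 of all genes responded more and 516 less. With equal totals 2 members responded more and 2 less, where 380 of all genes responded more and 1249 less. Ctsc differed by 0.53 ± 0.063 (limma adjusted p = 6.01e-08) and Npc2 by 0.36 ± 0.065 (adjusted p = 0.00014), and both passed under all 3 scalings and in 12 of 12 fits that left out 1 library.

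Ctsb, an abundant endopeptidase, had 40578, 43082 and 39238 in KO PAMP cells, against 30871, 30772 and 31828 in KO mock cells, and 32803, 36538 and 35573 in WT PAMP cells, against 31648, 32244 and 30653 in WT mock cells. KO PAMP libraries were above WT PAMP libraries, and mock libraries of the genotypes overlapped. The difference of responses was 0.25 ± 0.072 (limma adjusted p = 0.0201). It lost the call with equal totals (adjusted p = 0.177) and without KO PAMP replicate 2, KO mock replicate 2 or WT PAMP replicate 1 (adjusted p 0.0761, 0.0509 and 0.0769).

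Lgmn, an asparagine-specific protease, had 2197, 2205 and 2069.9 in KO PAMP cells, against 1595, 1678 and 1630.1 in KO mock cells, and 2172, 2171 and 2300.4 in WT PAMP cells, against 1960.4, 2016 and 1933 in WT mock cells. PAMP libraries of the genotypes overlapped, while all KO mock libraries lay below those of WT. The difference of responses was 0.23 ± 0.062 (limma adjusted p = 0.00951). Ctsz, a carboxypeptidase, had a difference of 0.22 ± 0.071 (adjusted p = 0.0343), with 15770 ± 258.3 in KO PAMP and 10447 ± 443.2 in KO mock cells, and 14558 ± 536.6 in WT PAMP and 11245 ± 362.3 in WT mock cells (mean ± SD, n = 3). Ctsz passed in 5 of 12 fits without 1 library, with adjusted p up to 0.111, and both Lgmn and Ctsz lost the call with quantile normalization (adjusted p = 0.177 and 0.959) and with equal totals (0.165 and 0.29). At 6 h the conventional dendritic cell sum was lower in KO than in WT cells and the macrophage sum similar (values above), and their part in these differences was not tested.

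Mock cells were compared between genotypes as the mean over the 3 times. Here 15 members were higher and 4 lower in KO cells, where 10.5% of all genes were higher and 11.7% lower, and the median difference was 0.063, against 0.009 for all genes. Of these, 13 were higher and 4 lower under all 3 scalings. Ctsk, the collagenase of osteoclasts and a gene of low level here, differed most, at 0.46 ± 0.094 (limma adjusted p = 0.000188). Its means were 67.1 ± 12.5, 77.8 ± 4.04 and 86.7 ± 7.70 in KO mock cells at 1, 3 and 6 h, against 43.4 ± 10.8, 63.5 ± 3.60 and 63.1 ± 3.61 in WT mock cells. KO libraries exceeded WT libraries at each time.

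Tfeb was 0.23 ± 0.044 higher in KO mock cells (limma adjusted p = 5.48e-05), Ctsd 0.22 ± 0.030 (adjusted p = 1.19e-07), and Naglu 0.21 ± 0.036 (adjusted p = 1.3e-05). The genes lower in KO were Npc2, at -0.18 ± 0.027 (adjusted p = 9.59e-07), Ctsl, at -0.16 ± 0.034 (adjusted p = 0.000431), Lgmn, at -0.15 ± 0.025 (adjusted p = 5.59e-06), and Atp6v1f, at -0.12 ± 0.040 (adjusted p = 0.0203). The differences were small, with a ratio of means of 1.36 for Ctsk and 0.883 for Npc2. The conventional dendritic cell sum, which includes MHC class II genes, was lower in KO mock cells at each time. Its means were 38120, 36910 and 46080 in KO and 57420, 55490 and 65880 in WT mock cells. The macrophage sum was 20260, 23120 and 31560 in KO and 23440, 26130 and 33760 in WT mock cells. The part of these sums in the differences was not tested. The mock libraries are also the controls of the responses.

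Mock cells changed with time in culture. From 1 to 6 h in KO mock cells 11 members were higher and 16 lower at 6 h, where 30.3% of all genes were higher and 32.4% lower. In WT mock cells 13 were higher and 13 lower, where 30% of all genes were higher and 31.5% lower. With the deposited scaling, 5 of 11 proteases were higher and 2 lower in KO and 8 higher and 0 lower in WT mock cells, whereas of 14 pump genes 1 was higher and 9 were lower in each. With quantile normalization 3 proteases were higher and 3 lower in KO and 6 higher and 1 lower in WT mock cells, while 10 pump genes in KO and 9 in WT were lower. Of all genes, 3573 were then higher and 3841 lower in KO and 3546 higher and 3721 lower in WT mock cells. Marker sums also differed between the times, with macrophage means of 31560 at 6 h against 20260 at 1 h in KO and 33760 against 23440 in WT mock cells. Plasmacytoid means were 542.1 against 276.9 in KO and 608.4 against 370 in WT, and those of mast cells and basophils 56.5 against 117.9 in KO and 104.6 against 205.1 in WT mock cells. Their part in the changes with time was not tested. Atp6v0d2 had 1631, 1694 and 1559.6 at 6 h, against 3969, 3701 and 4064 at 1 h in KO mock cells, and 1583, 1629 and 1426 against 3158, 3002 and 3024 in WT mock cells. The times were far apart, at -1.26 ± 0.049 in KO (limma adjusted p = 2.43e-26) and -0.99 ± 0.049 in WT cells (adjusted p = 2.88e-22), under all 3 scalings. Ctsh differed by 0.55 ± 0.054 in KO (adjusted p = 3.04e-12) and 0.66 ± 0.054 in WT cells (adjusted p = 1.02e-14), and Ctsa by 0.42 ± 0.046 (adjusted p = 6.54e-11) and 0.43 ± 0.046 (adjusted p = 4.53e-11).

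This comparison and the response at 6 h share the mock libraries of 6 h, so values are only set side by side. Ctsa was 0.42 and 0.43 higher in KO and WT mock cells at 6 h than at 1 h, and -0.45 and -0.44 with PAMP RNA against mock at 6 h. Its PAMP libraries at 6 h (2034 to 2192 in KO and 1849.9 to 2156 in WT) lay near its mock libraries at 1 h (2122 to 2196 in KO and 1940.5 to 2016 in WT). Gla was -0.56 and -0.46 in mock cells over time and 0.79 and 0.66 with PAMP RNA at 6 h, and Atp6v1d was lower in mock cells at 6 h than at 1 h in both genotypes. In PAMP cells Atp6v1d had 1807 ± 174.6 at 6 h, against 605.8 ± 17.8 at 1 h in KO, and 1567 ± 146.8 against 663.7 ± 19.0 in WT cells (mean ± SD, n = 3). Npc1 was lower over time in mock cells (-0.42 in KO and -0.49 in WT) and lower again with PAMP RNA at 6 h.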

How the data were processed

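RNA sequencing libraries were made without strand marking (SMARTer and Nextera XT) and read as 100-base single reads, per the labels. Per the submitters' processing notes, TopHat, Cufflinks and DESeq2 were used with GRCm38 (mm10). Their versions and roles, and the annotation, are not stated there. The authors deposited 1 signal value per gene and library, a read count divided by the library's DESeq size factor. Divided by a library's smallest step, 100% of values gave whole reads (tolerance 0.01 read), which were kept as recovered reads.

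The scale was log2(value + 1), kept for 11853 genes averaging at least 10; here a fold understates the change of low genes. Under R 4.3.3, limma 3.58.1 estimated 12 group means with a mean-variance trend and 24 residual degrees of freedom. Two-sided p-values were adjusted by Benjamini-Hochberg over all 11853 genes, with calls at an adjusted p under 0.05. Changes are PAMP minus mock, KO minus WT or 6 h minus 1 h, in log2 units with the standard error of the fit. The KO minus WT responses share libraries with each response. Alternatives were a pseudocount of 5, no filter, quantile normalization, equal total reads, edgeR (version 4.0.16) and DESeq2 (version 1.42.0) on recovered reads, a replicate block, and leaving out each library. The fit was also run on simulated data with few changed genes, raised and lowered alike, which cannot test the choice of scaling.

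The 38 genes, the lists of other genes and the cell type markers were chosen with earlier results of these data known. Named with a fold change are, in each comparison, up to 6 members per direction, by size of change among those called and averaging at least 50, and in the responses Tfeb, Lamp1, Ctss, Ctsl, Atp6v0d2 and Dhx58. The text describes a part of these. Of each list, up to 2 genes per direction in WT cells at 6 h were eligible. Positions and exon lengths are from GENCODE, with promoter windows from RefSeq. An exon length covers all annotated exons of a gene, with overlaps counted once, and is not the length of the transcript expressed. The labels speak of biological triplicates as plated, so the p-values reflect the spread of such libraries, which may be technical. Exons of 12 members overlap another gene, and their reads cannot be told apart without strand; Atp6v0c also has named pseudogenes.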

Additional observations from a re-analysis of the deposited data

Results flagged for a closer look

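Of the 38 genes, 7 results stood out because the response to PAMP RNA differed between KO and WT cells by a test of the difference itself (limma, KO response minus WT response). At 3 h these were Ctsc, at 0.38, and Tfeb, at -0.39. At 6 h they were Ctsc, at 0.53, Npc2, at 0.36, Ctsb, at 0.25, Lgmn, at 0.23, and Ctsz, at 0.22. The calls of Lgmn and Ctsz were lost with quantile normalization and those of Ctsb, Lgmn and Ctsz with equal totals, and Tfeb passed in 6 of 12 fits that each left out 1 library. The mock libraries of KO cells lay below those of WT for Npc2 and Lgmn at 6 h, with means of 5412 in KO and 6389 in WT mock cells for Npc2 and 1634 in KO and 1969.7 in WT mock cells for Lgmn.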

How the results depend on the processing

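A pseudocount of 5, edgeR and DESeq2 each left all 24 counts of members within 1.5 times the reported count. So did the fit with a replicate block, which gave 23 rises in KO cells and 21 in WT cells at 6 h, as reported, and changed no call of a named gene. Residuals of same-numbered PAMP and mock libraries of a genotype and time correlated at -0.081 to 0.051 over 18 pairs. A weak shared effect could go unseen with 3 libraries per group, so these values do not settle whether the numbers pair libraries. Pairing across times or genotypes was not examined. Without the filter on low values 3 members fell in WT cells at 3 h, 0 responded less in KO cells at 3 h and 3 responded more at 6 h, as Tfeb (adjusted p = 0.0635), Ctsb (0.0661) and Ctsz (0.0779) lost their calls.

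Scaling changed the counts most. At 6 h the deposited values of a library summed to 1.03e+07 to 1.05e+07 in KO PAMP, against 7.32e+06 to 7.48e+06 in KO mock cells. In WT cells the sums were 9.51e+06 to 9.71e+06 with PAMP RNA, against 7.36e+06 to 7.46e+06 in mock cells. Equal totals make these sums alike and so lower PAMP values against mock values. Why the sums differed was not tested. With quantile normalization and with equal totals, rises numbered 4 and 4 in KO and 4 and 5 in WT cells at 3 h, and 8 and 10 in KO and 8 and 9 in WT cells at 6 h. Falls numbered 24 and 26 in KO and 22 and 23 in WT cells at 3 h, and 21 and 24 in KO and 21 and 22 in WT cells at 6 h. With quantile normalization 1 member (Ctss) fell in KO cells at 1 h and 2 responded less in KO cells at 3 h. Members responding more in KO cells at 6 h numbered 3 and 2, those responding less 1 and 2, and those higher in KO mock cells at 6 h than at 1 h 6 and 7.

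Some named genes changed direction. With quantile normalization Ctss turned to -0.37 and -0.26 in KO cells at 3 and 6 h, and to 0.0083, -0.29 and -0.092 in WT cells at 1, 3 and 6 h. With equal totals it turned to -0.17 in KO and -0.073 in WT cells at 3 h. Lamp1 turned to -0.41 and -0.22 in KO cells at 3 h, -0.51 and -0.24 in KO cells at 6 h and -0.47 and -0.22 in WT cells at 6 h (quantile, then equal totals). Atp6v0d2 turned to -0.31 and -0.28 in KO and -0.097 and -0.067 in WT cells at 6 h, and Tfeb to -0.017 and -0.29 in WT cells at 6 h. With equal totals Atp6v1h turned to -0.0078 in KO cells at 3 h. Psap, whose rank among all genes was the same in these libraries, is fixed by quantile normalization and read -0.0000 over time in KO mock cells.

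Leaving out 1 library at a time gave 0 to 1 falls in WT cells at 1 h (1 without WT mock replicate 1). Members responding more in KO cells at 6 h numbered 3 to 5 (3 without KO PAMP replicate 2), and those responding less at 3 h 0 to 1. With all libraries the member responding less was Tfeb, whose call was lost in several fits, as counted above, and not only without KO PAMP replicate 3. Atp6v0d2 at 3 h in WT cells ranged from -0.047 to 0.0022. Depth limits the low genes, Ctse and Ctsk above all.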
